A study of Zea mays with 2 samples.

Results

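The outermost 20 Mb of the maize chromosomes held 590 of the 3126 regions in the authors' deposited table of regions. A region was counted here if its midpoint lay at most 20 Mb from position 0, or at most 20 Mb from the end of the last region listed on its chromosome. The first 20 Mb held 322 of these regions and the last 20 Mb held 268. The other 2530 regions of chromosomes 1 to 10 served as the comparison, and 6 regions with the chromosome label 0 have no position relative to an end and were left aside.

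The series profiles nucleosomes in flowers of B73, a maize inbred line, with 1 MNase library, made from gel-cut fragments of about 150 bp, and 1 input library of sonicated chromatin of 200 to 500 bp. No genotype, treatment or time differs between the 2 libraries, and neither has a replicate, so no test between MNase and input was possible. In MNase-Seq, micrococcal nuclease cuts away linker DNA, and what nucleosomes protect is sequenced. The series title concerns hotspots of meiotic double-strand breaks. The deposited table does not itself say how its regions were called.

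Meiotic recombination starts when the SPO11 protein cuts both strands of the DNA, and a minority of these breaks become crossovers. In maize the chromosome ends are rich in genes and carry most crossovers, while the long interiors are rich in repeats and recombine little. Nucleosomes restrict access to DNA, and open chromatin is a known setting of breaks in plants and yeast. The comparison of ends with interiors therefore asks whether the listed regions and their count ratio follow this division of the chromosome.

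In the main comparisons, no difference between the outermost 20 Mb and the rest of the chromosomes was detected in the number, length or count ratio of the regions. Chromosome ends held 14.8 regions per 10 Mb and the rest held 15.3. Their median lengths were 1089 bp in the ends and 1109.5 bp in the rest. The median ratios were 0.823 in the ends and 0.842 in the rest. Of 16 comparisons made over the 10 chromosomes, 0 passed the threshold of 0.05, with or without adjustment (two-sided exact permutation test that flips the signs of chromosomes, smallest unadjusted p = 0.0508, Benjamini-Hochberg adjusted p from 0.414 to 0.873). The smallest p belonged to the median ratio of the last 20 Mb, at 0.910 times that of the rest. With the limit drawn at 10 Mb, 1 of the 16 comparisons passed: ratios above 2 made up 1.18% of the regions within that limit and 4.28% of those beyond it. That limit was an alternative among several, and its adjustment did not cover the others.

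The ratio is 1 value per region that the authors formed from 2 whole numbers and a constant. The table has no header, so which library is the numerator is unknown, and ratios are described only as higher or lower. For the same reason the whole numbers themselves were not compared, depth per region is unknown, and no counting interval is given. Each test uses 1 value per chromosome, because regions of 1 chromosome are not independent, and its p describes the spread between chromosomes of this table, not between plants. No genome of a stated build was used, so positions are the table's own, counted from 1, and neither genes nor sequences were read at them.

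Regions were present at all 20 chromosome ends, with numbers that varied between chromosomes. For the last 20 Mb the presence of a region holds by construction, because the last listed region sets that end. The first 20 Mb held between 24 regions on chromosome 2 and 42 on chromosome 7, with a mean of 32.2 ± 6.34 (SD, n = 10 chromosomes). The last 20 Mb held between 12 on chromosome 8 and 34 on chromosome 10, with a mean of 26.8 ± 6.70. The rest of the chromosomes held 30.5 ± 2.44 regions per 20 Mb, from 27.1 on chromosome 7 to 34.3 on chromosome 4. The counts at the ends thus lay on both sides of those in the rest. The value of the rest is scaled down from a longer stretch, so its smaller SD is not a like comparison. Because 40 Mb is a larger part of a short chromosome, the ends took up 13.3% of chromosome 1 and held 12.2% of its regions, whereas they took up 26.8% of chromosome 10 and held 28.3% of its regions. Over all 10 chromosomes the ends made up 19.5% of the 2051 Mb and held 18.9% of the regions.

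The density of the ends was 0.955 times that of the rest, as a mean over chromosomes on the log2 scale, with a 95% interval of 0.822 to 1.11 from the exact test. It was higher in the ends on 5 chromosomes and lower on 5 (log2 difference -0.067 ± 0.31, SD, n = 10 chromosomes, two-sided exact permutation p = 0.537, adjusted p = 0.652). The first 20 Mb had 1.04 times the density of the rest (0.875 to 1.24, adjusted p = 0.652 by the same exact test). The last 20 Mb had 0.849 times the density of the rest (0.667 to 1.02), lower on 7 chromosomes (two-sided exact permutation p = 0.104, adjusted p = 0.414). Chromosome 8 weighed most on it: without that chromosome the mean log2 difference was -0.11, against -0.24 with it. At the 10 Mb limit it was -0.0020 (two-sided exact permutation p = 0.990), so the lower value was not found in the outermost 10 Mb of that end.

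**Figure D1:**
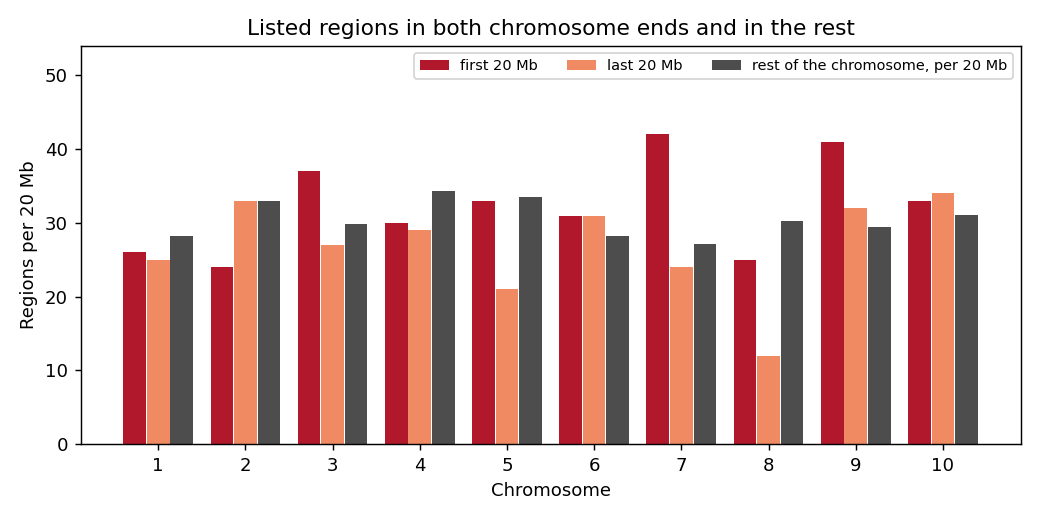
Number of listed regions in the first 20 Mb, in the last 20 Mb and, scaled to 20 Mb, in the rest of each chromosome (horizontal axis, chromosome; vertical axis, regions per 20 Mb; each bar is 1 value with no error). The last 20 Mb of chromosome 8, with 12 regions, is the lowest bar, and the first 20 Mb of chromosome 7, with 42, the highest.

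The numbers of regions in both ends of a chromosome were close on some chromosomes and far apart on others. More regions lay in the first than in the last 20 Mb on 7 chromosomes, as many on 1 (chromosome 6, with 31 at each end) and fewer on 2 (chromosomes 2 and 10). On chromosomes 1, 4, 6 and 10 the ends differed by at most 1 region. Chromosome 8 had 25 regions in its first and 12 in its last 20 Mb. Chromosome 7 had 42 in its first and 24 in its last 20 Mb. The first 20 Mb had 1.23 times the density of the last 20 Mb (95% interval 0.987 to 1.55), short of the threshold (two-sided exact permutation p = 0.0742, adjusted p = 0.414). The far end was set by the last listed region, which puts 1 region into it by construction. Without that region on each chromosome the density of the last 20 Mb against the rest was -0.30 on the log2 scale (exact permutation p = 0.0352, adjusted p = 0.208), and that of the first against the last 20 Mb was 0.35 (exact permutation p = 0.0391, adjusted p = 0.208).

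Within the ends, most regions per length lay in the outermost 5 Mb and fewest between 10 and 15 Mb. In steps of 5 Mb inward, both ends together held 182, 156, 113 and 139 regions, or 18.2, 15.6, 11.3 and 13.9 regions per 10 Mb, beside 15.3 in the rest. From position 0 the steps held 95, 87, 64 and 76 regions. From the last listed position they held 87, 69, 49 and 63. Within 20 Mb, both ends thus had their lowest count between 10 and 15 Mb. Steps farther inside ranged from 135 to 172 regions up to 60 Mb from an end. As listed, the outermost step was thus the highest and the step from 10 to 15 Mb the lowest of the 12. The outermost step includes the last listed region of each chromosome, which lies there by construction. Its rank above the steps farther inside is therefore not a like comparison. The outermost 5 Mb were denser than the rest on 6 of 10 chromosomes and sparser on 4. Chromosome 8 had 11 regions there, the lowest count, and chromosome 3 had 25, the highest. The steps were looked at after the positions were known, and no test was made of them.

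**Figure D2:**
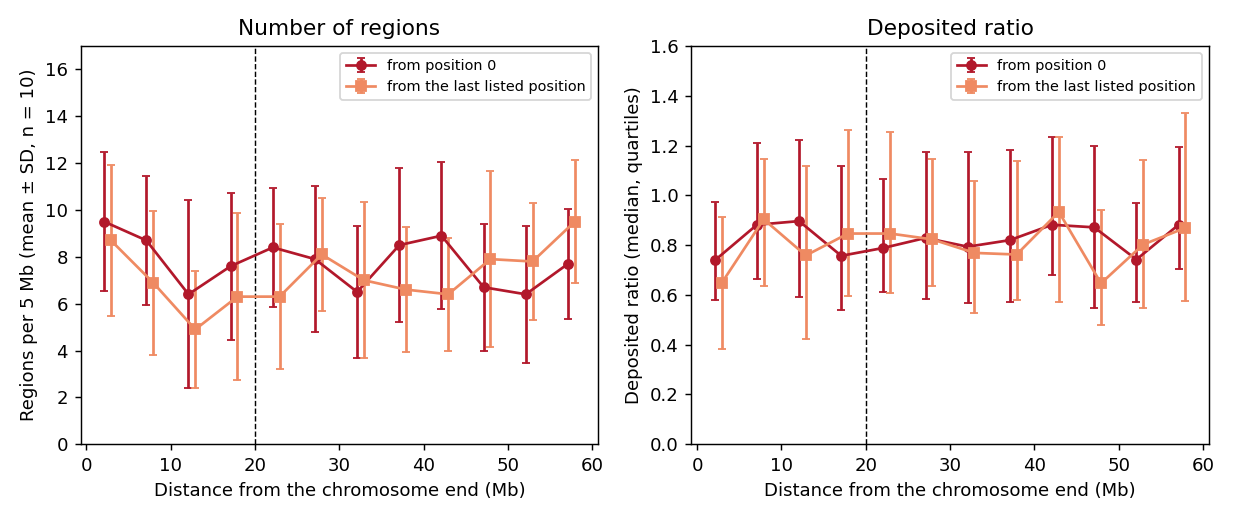
Regions per 5 Mb (left, mean ± SD over 10 chromosomes) and deposited ratio (right, median with quartiles over regions) by distance from position 0 and from the last listed position, in Mb. The dashed line marks 20 Mb. The count from the last listed position is lowest between 10 and 15 Mb, and that from position 0 is lowest there and again between 50 and 55 Mb, with 64 regions each. The ratio curves start at 0.738 from position 0 and at 0.647 from the last listed position, where the curve is again at 0.647 between 45 and 50 Mb.

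The region nearest to position 0 had its midpoint within 1000 kb of it on 9 of 10 chromosomes, and the distance was 78.9 kb on chromosome 3, the lowest, and 1020 kb on chromosome 9, the highest. On chromosome 3 this region ran from 78420 to 79394 with a ratio of 0.617 in the authors' deposited table. On chromosome 9 it ran from 1019502 to 1021129 with a ratio of 0.845. The regions next to position 0 had ratios from 0.381 on chromosome 10, at 304990 to 306358, to 0.984 on chromosome 4, at 206067 to 207624. All 10 of these outermost regions were therefore below 1 and above 0. Among all 322 regions of the first 20 Mb, 66.8% were below 1 and 3.73% were at 0, so most regions there shared both traits. The others began at 393588 on chromosome 1, 363486 on chromosome 2, 187165 on chromosome 5, 493660 on chromosome 6, 423500 on chromosome 7 and 373078 on chromosome 8.

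Values on both sides of the 20 Mb limit were as follows. Between 15 and 20 Mb from an end there were 139 regions with a median ratio of 0.793 and a median length of 1044 bp, and between 20 and 25 Mb there were 147 with 0.834 and 1131 bp. The innermost region of the first 20 Mb, on chromosome 5 from 19977903 to 19978731, was 829 bp long with a ratio of 1.10, and the nearest region beyond the limit, on chromosome 7 from 20216504 to 20217492, was 989 bp long with a ratio of 0.752. At the other end, the innermost region, on chromosome 9 from 135306618 to 135307444, was 827 bp long with a ratio of 0.670. The nearest beyond it, on chromosome 8 from 155549917 to 155550815, was 899 bp long with a ratio of 0.588.

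Spacing within the ends was described by windows and gaps. Of 400 windows of 1 Mb in the ends, 107 (26.8%) held no region, against 356 of 1646 windows (21.6%) in the rest. The mean per window was also lower in the ends, at 1.475 against 1.532, and no comparison with random placement was made. Windows with 4 or more regions made up 7.75% in the ends and 7.11% in the rest, and no window of either held more than 7. The median gap from a region to its nearest neighbour was 219 kb in the ends, and 206 kb in the rest. It was 164 kb in the first 20 Mb and 306 kb in the last 20 Mb. Over chromosomes the gap in the ends was 1.11 times that in the rest (95% interval 0.943 to 1.31), short of the threshold (two-sided exact permutation p = 0.193, adjusted p = 0.516).

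Close neighbours were also found in the ends. A neighbour under 20 kb away was present for 67 of the 590 regions (11.4%) in the ends and 194 of the 2530 (7.67%) in the rest. In the ends the share was lowest on chromosome 2, at 0%, and highest on chromosome 4, at 27.1%, and was above that in the rest on 7 of 10 chromosomes. In the rest it ran from 4.63% to 14.1%. This difference was not tested. The closest pair lay on chromosome 10, where a region from 138064179 to 138066905 was followed after 295 bp by one from 138067201 to 138068068, with ratios of 1.16 and 2.12 in the authors' deposited table. The next pair, on chromosome 4 from 10863675 to 10865662 and from 10867312 to 10868527, was 1.65 kb apart, with ratios of 0.976 and 1.64. On chromosome 3 a pair from 2946881 to 2948397 and from 2950313 to 2951439 was 1.92 kb apart, with ratios of 1.02 and 0.611. The last region of chromosome 1, from 300093849 to 300095765, had a neighbour from 300090863 to 300091913 at 1.94 kb, with ratios of 1.18 and 0.882. On chromosome 4 a region listed at 0, from 14036086 to 14037856, lay 2.42 kb from one with a ratio of 0.882, from 14040277 to 14041339. Neighbours under 2.5 kb apart could therefore carry unlike ratios.

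Region lengths in the ends ran from 800 to 2727 bp, with quartiles of 904 and 1470 bp, and in the rest from 800 to 3928 bp with quartiles of 912 and 1463 bp. Regions over 1500 bp made up 22.2% in the ends (131 regions) and 22.0% in the rest. Regions of 900 bp or less made up 24.4% in the ends and 23.2% in the rest. The covered length was 1779 bp per Mb in the ends, against 1870 bp per Mb in the rest. In the first 20 Mb 1956 bp per Mb were covered, and in the last 20 Mb 1602 bp per Mb.

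Chromosome medians of length lay between 1026 and 1135 bp in the ends and between 1077 and 1138 bp in the rest. They averaged 1095 ± 42.6 bp in the ends and 1106 ± 24.4 bp in the rest (SD, n = 10 chromosomes). The quotient was 0.989 (95% interval 0.959 to 1.02), lower in the ends on 6 of 10 chromosomes (two-sided exact permutation p = 0.438, adjusted p = 0.583). Single ends, which hold fewer regions, spread more widely, from 962 bp in the last 20 Mb of chromosome 6 to 1326 bp in the first 20 Mb of chromosome 1. Median length in the first over the last 20 Mb gave 1.05 (0.927 to 1.19, adjusted p = 0.568 by the same exact test).

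The longest region of the ends was the 2727 bp region on chromosome 10 that belongs to the closest pair above. A region of 2579 bp on chromosome 4, from 10051026 to 10053604, followed with a ratio of 0.947 in the authors' deposited table. Regions of 2402 bp on chromosome 1, from 8551647 to 8554048, of 2366 bp on chromosome 2, from 17149214 to 17151579, and of 2333 bp on chromosome 3, from 227084896 to 227087228, had ratios of 1.71, 0.756 and 0.696. Of the 10 longest regions in the table, 1 lay in the ends, which held 18.9% of the regions of chromosomes 1 to 10.

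**Figure D3:**
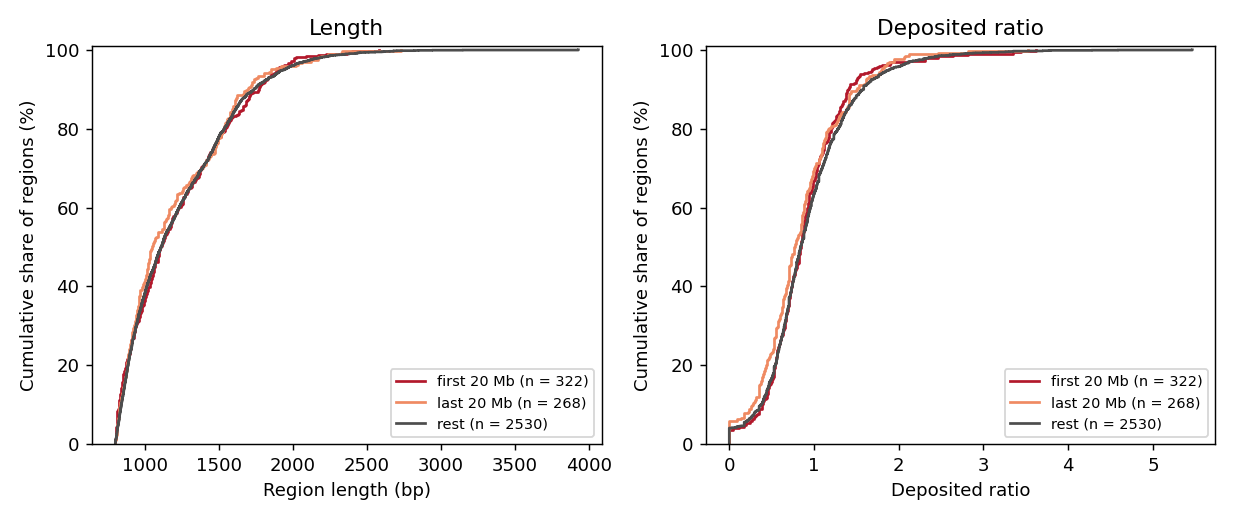
Cumulative share of regions (vertical axes, percent) by length in bp (left) and by deposited ratio (right) for the first 20 Mb (322 regions), the last 20 Mb (268) and the rest (2530). The length curves lie close together, and the ratio curve of the last 20 Mb lies to the left of the others around its median of 0.769, beside 0.842 in the rest.

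Ratios in the ends ran from 0 to 3.61, with quartiles of 0.554 and 1.10, and in the rest from 0 to 5.47 with quartiles of 0.595 and 1.18. A ratio below 1 was found for 403 regions in the ends (68.3%) and 1607 in the rest (63.5%). No source used here explains the constant in the ratio, so a ratio of 1 cannot be read as equal occupancy. The median was 0.842 in the first 20 Mb and 0.769 in the last 20 Mb, beside 0.842 in the rest.

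Chromosome by chromosome, the median ratio averaged 0.813 ± 0.0610 in the ends and 0.845 ± 0.0294 in the rest (SD, n = 10 chromosomes). It was lower in the ends on 7 of 10 chromosomes, with a quotient of 0.960 (95% interval 0.906 to 1.02), short of the threshold (two-sided exact permutation p = 0.145, adjusted p = 0.463). Chromosome 10 had 0.743 in the ends and 0.882 in the rest. Chromosome 7 had 0.909 in the ends and 0.855 in the rest. The ranges overlapped, from 0.718 to 0.909 in the ends and from 0.800 to 0.882 in the rest.

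Chromosome medians of the ratio in the last 20 Mb averaged 0.774 ± 0.0936, against 0.845 ± 0.0294 in the rest (SD, n = 10 chromosomes), and were lower than the rest on 7 chromosomes. The lowest, 0.600, belonged to chromosome 3, where the rest had 0.800. Chromosomes 5 and 10 followed with 0.691 and 0.705 in the last 20 Mb, against 0.865 and 0.882 in the rest. The quotient was 0.910 (95% interval 0.829 to 1.00), and the two-sided exact permutation test gave p = 0.0508 and an adjusted p of 0.414. In the first 20 Mb the quotient was 0.961 (0.891 to 1.04, adjusted p = 0.518 by the same exact test), lower on 7 chromosomes, although the medians over all regions were both 0.842. The direct comparison of the first with the last 20 Mb gave 1.06 (0.929 to 1.20, two-sided exact permutation p = 0.355, adjusted p = 0.568), so the 2 ends were not shown to differ.

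**Figure D4:**
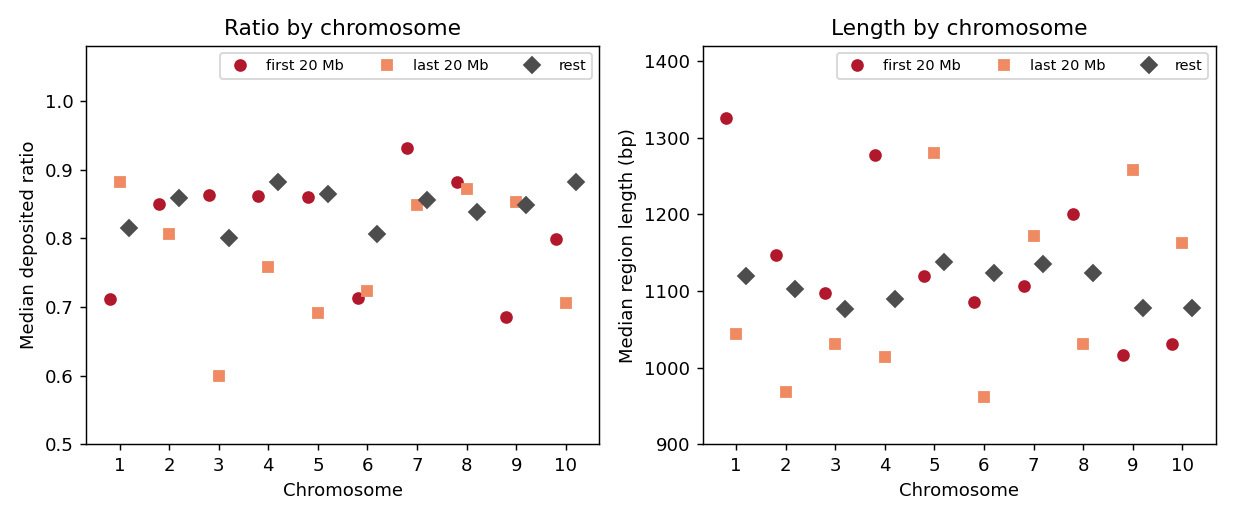
Median deposited ratio (left) and median region length in bp (right) of the first 20 Mb, the last 20 Mb and the rest on each chromosome (horizontal axes); each point is 1 median, and the vertical axes do not start at 0. The single ends scatter more widely than the rest, from 0.600 to 0.931 in ratio, against 0.800 to 0.882. Each end median rests on 12 to 42 regions and each rest median on 170 to 367, so the scatter is not a like comparison.

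By distance, the median ratio was lowest in the outermost part of the ends. The 182 regions of the outermost 5 Mb had a median of 0.705, the 408 regions from 5 to 20 Mb had 0.860, and the rest had 0.842. The outermost 5 Mb were below the rest on 8 of 10 chromosomes, the exceptions being chromosome 3 with 0.809 against 0.800 and chromosome 8 with 0.862 against 0.838. Medians farther inside also moved, with 0.716 between 45 and 50 Mb and 0.882 between 40 and 45 Mb, so a low step was not found only at the end. These steps were described after the data had been seen and were not tested.

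Ratios above 2 made up 3.93% of regions across the table. In the ends 16 of 590 regions (2.71%) had one, against 107 of 2530 (4.23%) in the rest. The difference of -1.77 percentage points as a mean over chromosomes (95% interval -4.06 to 0.397) stayed short of the threshold (two-sided exact permutation p = 0.0977, adjusted p = 0.414). From the end inward in steps of 5 Mb, the ends held 1, 3, 7 and 5 such regions. The 10 Mb limit was an alternative chosen along with the main limit, with earlier results of these data known. Within it 4 of 338 regions (1.18%) and beyond it 119 of 2782 (4.28%) were above 2. The share was lower within 10 Mb on 10 of 10 chromosomes, with a mean difference of -3.18 percentage points (95% interval -4.52 to -1.91), and 6 chromosomes had no such region there. Kept apart, the first 10 Mb held 4 of 182 regions above 2 (2.20%) and the last 10 Mb held 0 of 156. For 0 of 156, the approximate upper bound of 3 divided by the number of regions is 1.92%. That bound takes regions as independent, which those of 1 chromosome are not, so it is only a rough guide. The ends were not tested apart. The difference for both ends together passed the threshold over the 16 comparisons at the 10 Mb limit (two-sided exact permutation p = 0.00195, which is the lower limit for 10 chromosomes, adjusted p = 0.0312). It was the 1 adjusted p under 0.05 among 253 values computed under alternatives. The adjustment covered only the comparisons at this limit, not the other alternatives. Between 10 and 20 Mb 12 of 252 regions (4.76%) were above 2.

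The highest ratios of the ends belonged to 5 regions, 4 of them in the first 20 Mb. In the authors' deposited table a region on chromosome 5 from 7109261 to 7110516 had 3.61. A region on chromosome 2 from 222089314 to 222090135, in the last 20 Mb, had 3.53. On chromosome 9, regions from 15952562 to 15953651 and from 15634467 to 15635290 had 3.44 and 2.82 in the authors' deposited table. A region on chromosome 3 from 14708948 to 14710778 had 3.35. Except for the first, these regions lay more than 10 Mb from an end. Of the 10 highest ratios in the table, 2 lay in the ends, which held 18.9% of the regions of chromosomes 1 to 10. Of the 16 regions above 2, 2 were longer than 1500 bp, where 22.2% of all regions in the ends were. Their median length was 1162 bp in the ends, beside 1031 bp for regions above 2 in the rest.

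Regions listed at 0 made up 4.41% of the table. In the ends 28 of 590 regions (4.75%) were at 0, and in the rest 104 of 2530 (4.11%). As means over chromosomes the shares were 4.52% ± 3.27 in the ends and 4.34% ± 1.82 in the rest (SD, n = 10 chromosomes), a difference of 0.184 percentage points (95% interval -2.54 to 2.87, two-sided exact permutation p = 0.873, adjusted p = 0.873). Chromosome 10 had 7 regions at 0 in its ends (10.4%) and chromosome 1 had none among 51. The first 20 Mb held 12 (3.73%) and the last 20 Mb held 16 (5.97%), a mean difference of -1.99 points that stayed short of the threshold (two-sided exact permutation p = 0.281, adjusted p = 0.563). In steps of 5 Mb inward there were 10, 2, 10 and 6. Regions at 0 had a median length of 961 bp in the ends, against 1094 bp for the other regions there. Ratios below 0.5, zeros included, were 17.3% of the table. They made up 113 of 590 regions (19.2%) in the ends and 421 of 2530 (16.6%) in the rest, with 15.8% in the first and 23.1% in the last 20 Mb.

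Length, distance and ratio were only weakly related within the ends. Across the 590 regions, Spearman's rho was 0.0810 between length and ratio, beside 0.0857 across the 2530 regions of the rest. Between the distance from the end and the ratio rho was 0.0959 across the regions of the ends, with 0.0451 in the first and 0.154 in the last 20 Mb. Between the distance and the length it was -0.0643. These values describe regions that share chromosomes and libraries and are given without a test.

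**Figure D5:**
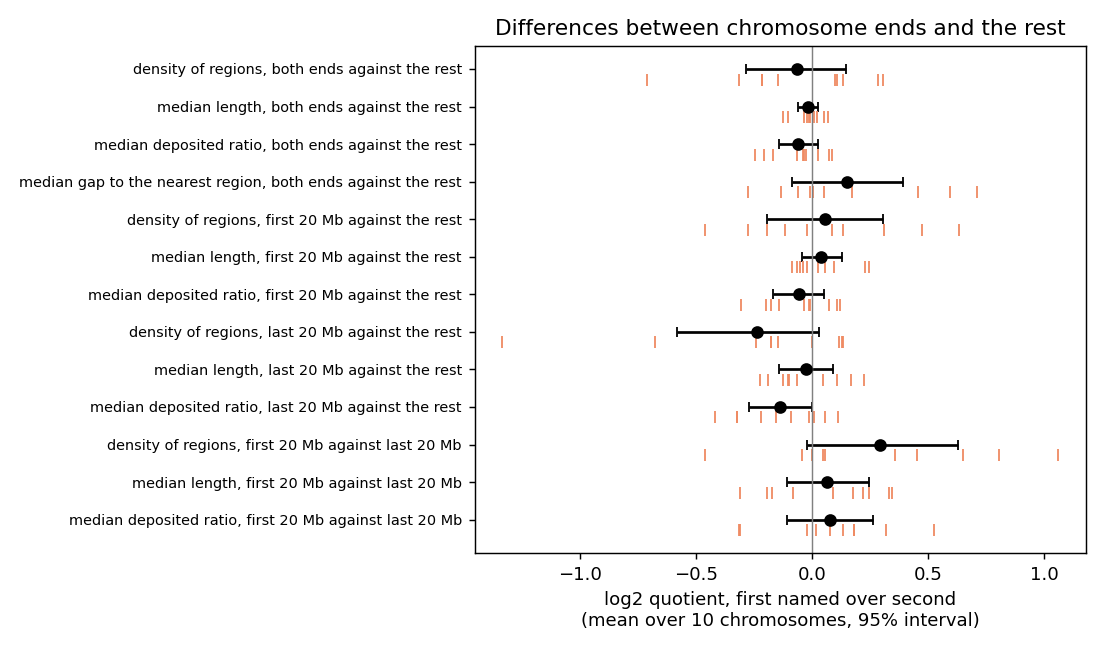
Differences in density, median length, median ratio and median gap as log2 quotients (horizontal axis), the first named over the second; black points are means over 10 chromosomes with 95% intervals from the exact permutation test, and coloured ticks are single chromosomes. All 13 intervals include 0, and that of the ratio in the last 20 Mb against the rest ends closest to it, from -0.27 to 0.00036.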

How the data were processed

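For the MNase library, nuclei received 5 s of sonication and 10 min of micrococcal nuclease at 0.02 U/µl, per the labels' protocols. The submitters' processing notes name CASAVA 1.8 and BWA but give neither a role. How regions were called and filtered is not stated in the sources used here, nor is the genome build. The authors deposited 1 table without a header, giving chromosome, start, end, length in bp and a linear ratio for 3126 regions. For all 3126 regions the deposited ratio was 0.176 times the first of 2 unnamed whole numbers divided by the second plus 1, within 1e-05. These 2 columns carry no library name and were used for nothing else. The added 1 lowers ratios most where the second number is small.

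Density, medians of length, ratio and gap, and shares at 0 or above 2 were computed per chromosome and compared as log2 quotients or percentage points by a two-sided exact permutation test over the 1024 ways to set the signs of 10 chromosomes, whose smallest p is 0.00195. Intervals are the shifts which that test does not reject at 95%. P-values were Benjamini-Hochberg adjusted over 16 comparisons. The tests of density, length and ratio for both ends against the rest were checked on simulated data in which regions were independent. Shares, gaps, single ends and other limits were not simulated. Named regions are the 5 highest, the 5 longest, the first on each chromosome, the 5 closest pairs and those at the limit. Members, lists and comparisons were chosen with earlier results of these data known. Alternatives set the limit to 10 or 30 Mb, kept regions of at least 1000 bp, left out the last listed region, regions at 0 or each chromosome in turn, took means, took differences within length classes, and limited the rest to 20 to 40 Mb from an end. Python 3.11.15, numpy 2.4.6, scipy 1.17.1, pandas 2.3.3 and matplotlib 3.10.9 were used.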

Additional observations from a re-analysis of the deposited data

How the results depend on the processing

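Alternatives other than leaving out a chromosome gave 93 values, judged here by adjusted p. Of these, 80 kept their direction and stayed short of the threshold, 12 changed direction without passing it, and 1 passed it. Across these and 160 values without single chromosomes, 11 had an unadjusted p under 0.05 and 1 an adjusted p under 0.05 (two-sided exact permutation test). That was the share above 2 at the 10 Mb limit, -3.18 percentage points (exact permutation test, adjusted p = 0.0312). Over all alternatives of this share the adjusted p ran from 0.0312 to 0.844 by the same exact test. Among regions of at least 1000 bp the difference was -0.650 points, against -1.77 with all regions. At the 30 Mb limit it was -1.68 points (exact permutation p = 0.0352, adjusted p = 0.406). The 10 Mb limit turned the density of the ends against the rest to 0.15 and the median length to 0.013 on the log2 scale, and left the density of the last end against the rest at -0.0020. The small difference in the share at 0 turned to -0.796 points at 10 Mb, -0.00174 at 30 Mb, -0.0542 for regions of at least 1000 bp, -0.157 without the last listed regions and -0.170 against 20 to 40 Mb. Against 20 to 40 Mb, the log2 differences were 0.011 in length and 0.011 in ratio for both ends, 0.013 in ratio for the first 20 Mb and 0.0018 in length for the last 20 Mb. Among regions of at least 1000 bp the first 20 Mb differed in length by -0.012. The cause of these changes was not tested. Without single chromosomes, log2 density ran from -0.11 to 0.0049 for both ends and from -0.0073 to 0.11 for the first 20 Mb, and the share at 0 from -0.434 to 0.821 points. The ratio of the last 20 Mb against the rest ran from -0.16 (without chromosome 1, exact permutation p = 0.0234) to -0.11, beside -0.14 in the main comparison. This ratio difference was -0.066 against 20 to 40 Mb (exact permutation p = 0.305) and -0.089 without regions at 0 (exact permutation p = 0.178). For regions of at least 1000 bp it was -0.21 (exact permutation p = 0.0625). At the 10 Mb limit it was -0.17 (exact permutation p = 0.0234, adjusted p = 0.188). Without the last listed region it was -0.13 (exact permutation p = 0.0371, adjusted p = 0.208). Without single chromosomes, the density of the first against the last 20 Mb ran from 0.21 to 0.38 (without chromosome 2, exact permutation p = 0.0156). For regions of at least 1000 bp that density difference was 0.39 (exact permutation p = 0.0312, adjusted p = 0.286). With means in place of medians, the log2 ratio difference of both ends against the rest was -0.091 (exact permutation p = 0.0430, adjusted p = 0.227). With medians it was -0.059. Depth per region was not read and limits every single ratio. No paired analysis of MNase against input was possible because each is a single library. The tests made here were paired by chromosome.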
